A study of Mus musculus with 43 samples.

Results

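Uptake and activation of long-chain fatty acids in brain endothelial cells (EC) was described through 8 genes: Lpl, Cd36, Slc27a1, Slc27a4, Fabp5, Acsl1, Acsl3 and Acsl5. They were taken as the rows of the count table with exactly these symbols, 8 of 54532 genes. No measured value was used to take these rows, but earlier results of these data were known when the genes were chosen. Live CD45-, CD11b-, CD31+ cells had been sorted from cortex or hippocampus of mice aged 2 months, and their rRNA-depleted RNA gave 43 libraries. The labels name no transgene and no treatment. The long-inbred strains were 129S1/SvImJ (9 libraries), A/J (5), C57BL/6J (6), DBA/2J (5) and NOD/ShiLtJ (6), and the wild-derived strains were CAST/EiJ (6) and WSB/EiJ (6). Female mice gave 16 libraries and male mice 27, cortex 21 and hippocampus 22. Sample titles also carry the tag high or low, which the sources used here do not define; 15 female and 14 male libraries are titled high, 1 female and 13 male libraries low. The titles name no mouse, so p-values measure only the spread between these libraries, some of which may share an animal.

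Fatty acids reach EC from lipoproteins and from albumin. Lipoprotein lipase frees them from triglycerides at the luminal surface, membrane proteins take them up, binding proteins carry them in the cytosol, and acyl-CoA synthetases activate them with coenzyme A for oxidation, storage or membrane lipids. Capillaries of heart, muscle and fat are known for high CD36 and fatty acid binding proteins. Brain capillaries are known instead for Mfsd2a, the carrier of lysophosphatidylcholine with docosahexaenoic acid, and the brain takes most of its energy from glucose.

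Promoter sequences are shown for 3 of the genes, chosen by their level in CPM and not per length. Cd36 was near 0, and Acsl3 and Acsl1 had the highest levels in CPM (a gene's counts over the library's counts, scaled by TMM, times 1e6). Each line gives the 250 bases before the RefSeq start on GRCm38.p6, 5′ to 3′ on the gene's strand, with CG dinucleotides in capitals. Cd36 lies at chr5:17835897-17836146 on the minus strand, inside the gene and in no exon of GENCODE release M21. Acsl1 lies at chr8:46470787-46471036 and Acsl3 at chr1:78657575-78657824, both on the plus strand and outside the annotated gene. The Acsl1 stretch is that of the first of its listed starts.
Cd36: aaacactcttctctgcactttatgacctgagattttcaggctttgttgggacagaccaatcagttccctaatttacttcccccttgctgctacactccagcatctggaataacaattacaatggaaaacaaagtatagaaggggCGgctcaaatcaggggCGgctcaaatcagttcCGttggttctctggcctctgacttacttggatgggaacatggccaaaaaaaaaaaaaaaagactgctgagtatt
Acsl1: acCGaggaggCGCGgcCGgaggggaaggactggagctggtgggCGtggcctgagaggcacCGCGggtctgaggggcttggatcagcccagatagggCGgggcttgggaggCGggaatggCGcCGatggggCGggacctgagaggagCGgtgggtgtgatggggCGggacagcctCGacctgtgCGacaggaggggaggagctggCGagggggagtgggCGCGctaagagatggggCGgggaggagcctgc
Acsl3: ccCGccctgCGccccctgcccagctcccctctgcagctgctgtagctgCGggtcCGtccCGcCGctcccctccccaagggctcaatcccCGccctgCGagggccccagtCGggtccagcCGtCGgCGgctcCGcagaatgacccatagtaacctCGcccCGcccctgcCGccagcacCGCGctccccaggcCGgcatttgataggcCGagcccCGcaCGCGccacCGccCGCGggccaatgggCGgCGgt
The Cd36 stretch held 3 CG dinucleotides, that of Acsl1 20 and that of Acsl3 28, against a median of 6 over 32851 mouse promoters of this length. RefSeq lists another Acsl1 start inside the gene, and the stretch before it, chr8:46490716-46490965, held 2. The hexamer AGGTCA, a nuclear receptor half-site searched on both strands, was found in Cd36 and in neither of the others, and 14.0% of all promoters hold it. TATAAA, also searched on both strands, was in none of the 3, and 12.4% of all promoters hold it. RefSeq promoters matched 6 of the 8 genes, all but Lpl and Fabp5. Stretches of the other genes held 7 CG dinucleotides for Acsl5, 8 for Slc27a4, and 8, 12 and 10 for Slc27a1. Whether CG content goes with level was not tested.

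The libraries differed in depth, and this bears on the low genes. Between 1626534 and 49372356 counts were assigned to genes per library (median 5790701), with 2731954 or more in every female library and 10567966 or fewer in every male one. The rRNA-like genes Gm23935, Gm42418 and Gm26917 took 1.59% to 12.1% of the counts in female and 13.0% to 29.3% in male libraries, with no overlap. Marker levels, as the mean of log2(CPM + 1) over each list, averaged 9.23 ± 0.326 (SD, n = 43 libraries, lowest 8.47) for 20 endothelial genes, of which Ly6c1 was at or under 3 counts in 4 libraries and the other 19 were above it in all. The lists for pericytes averaged 6.92, astrocytes 6.63, neurons 4.20, smooth muscle cells 3.53, oligodendrocytes 2.75, fibroblasts 2.03, microglia 1.03 and choroid plexus 0.901. In sorted bulk RNA, fewer cells of a type and less RNA per cell cannot be told apart. Differences were tested on both sides by the quasi-likelihood method of edgeR, adjusted after Benjamini-Hochberg over the 29120 genes that reached 0.5 CPM in any library, and a gene was called at an adjusted p under 0.05.

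The 8 genes spanned the range from near absence to the upper levels of the transcriptome. In CPM, Acsl3 averaged 97.9 ± 30.5 (SD, n = 43 libraries), Acsl1 52.6 ± 33.0, Acsl5 47.4 ± 23.4, Fabp5 26.4 ± 22.7, Slc27a1 26.01 ± 15.1, Slc27a4 17.5 ± 10.1, Lpl 4.72 ± 6.58 and Cd36 0.0806 ± 0.462. Genes can be ranked against each other only per length. Per kb of the principal coding transcript, the mean CPM was 26.7 for Fabp5, 24.8 for Acsl3, 13.5 for Acsl1, 11.2 for Acsl5, 9.31 for Slc27a1, 4.32 for Slc27a4, 1.15 for Lpl and 0.0237 for Cd36. The steps from Acsl3 to Acsl1 (SD 7.72 and 8.47) and from Slc27a4 to Lpl (SD 2.48 and 1.5998) were larger than the larger SD of the neighbours, and the other 5 steps were not; Fabp5 had an SD of 23.005. The order depends on the length used: per kb of all annotated exons, Acsl3 led at 22.5, followed by Acsl5 at 9.75 and Fabp5 at 7.39. On the coding transcript scale Mfsd2a stood at 91.8, Dbi, the acyl-CoA binding protein, at 88.3 and Cav1, the caveolar coat protein, at 77.0, above all 8.

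**Figure D1:**
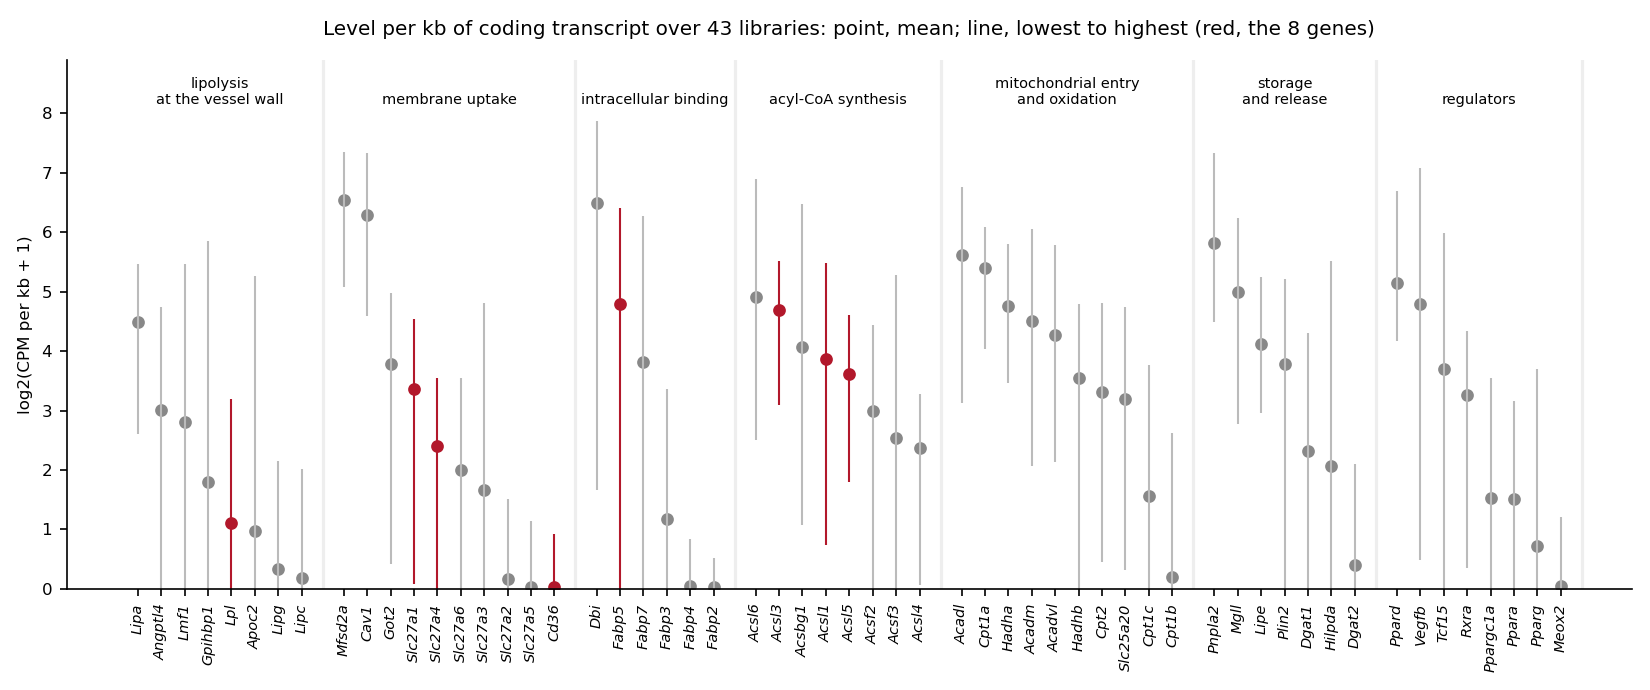
Levels of the 8 genes (red) and of the other fatty acid genes with any count (grey) in 7 groups, as log2(CPM per kb of coding transcript + 1); points are means over 43 libraries and lines run from the lowest to the highest library. Mfsd2a and Cav1 lead membrane uptake, Acsl3 lies near the top of acyl-CoA synthesis, and Cd36 sits at the floor of its group.

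Lpl (ENSMUSG00000015568, mm10 chr8:68880491-68907448, plus strand) encodes the lipase that EC normally receive from neighbouring cells and hold at the lumen. Lpl was the only one of the 8 to differ among the 7 strains, where 2.68% of all genes were called (adjusted p = 0.0488, quasi-likelihood test with Benjamini-Hochberg adjustment). None of the 6 C57BL/6J libraries had a single Lpl count in 45808635 counts. That allows at most 0.0625 CPM over the group, the level of 3 counts, which covers counting error only. The other 37 libraries averaged 5.48 ± 6.80 CPM (SD), so Lpl was at least 87.7-fold lower in C57BL/6J, and at least 31.5-fold lower than the lowest other strain mean. This contrast of C57BL/6J with the other 6 strains passed the test as well (adjusted p = 0.00989), in 1 of the 8 genes against 0.529% of all genes. Of the others, 7 of 37 libraries also had 0 counts, so that the groups overlapped. The neuron list was lowest in C57BL/6J, at 3.304 ± 0.847 (SD), and averaged 5.08 in DBA/2J and 4.86 in WSB/EiJ. In A/J, where Lpl averaged 5.85 CPM, that list was at 3.447. Over the 43 libraries Lpl correlated with the neuron list at r = 0.31 and with the endothelial list at r = -0.30. The part of other cell types in the Lpl level was not tested.

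Lpl varied widely inside the strains that had it. In 129S1/SvImJ the lowest of 9 libraries had 0, the median 5.05 and the highest 21.8 CPM. A/J libraries had 0, 4.56, 5.01, 6.85 and 12.8 CPM, and those of DBA/2J 0, 4.91, 6.73, 8.92 and 17.1. WSB/EiJ had the highest mean, 8.48 ± 13.1 CPM (SD, n = 6), set by its male libraries titled high, at 11.7 in cortex and 33.7 in hippocampus, against 0 to 2.62 in the other 4. Those male libraries had the fewest counts of all libraries, 2327180 in cortex and 1626534 in hippocampus, and the fewest genes detected, 10623 and 8754. NOD/ShiLtJ averaged 3.14 ± 2.51 and CAST/EiJ 1.97 ± 1.497 CPM (SD, n = 6 each). In the order of strain means, the step from CAST/EiJ to C57BL/6J was the only one larger than the larger SD of the 2 strains. The call among strains was marginal. Leaving out each A/J and DBA/2J library in turn gave adjusted p from 0.0321 to 0.0724, under the threshold only without the male A/J cortex library titled low (0.0362) or the male DBA/2J cortex library titled high (0.0321). It was 0.0584 without the female 129S1/SvImJ cortex library titled low, 0.0695 without the male WSB/EiJ hippocampus library titled high and 0.817 without C57BL/6J. The C57BL/6J contrast gave an adjusted p of 0.207 with counts drawn down to the smallest library and of 0.164 in male libraries alone.

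**Figure D2:**
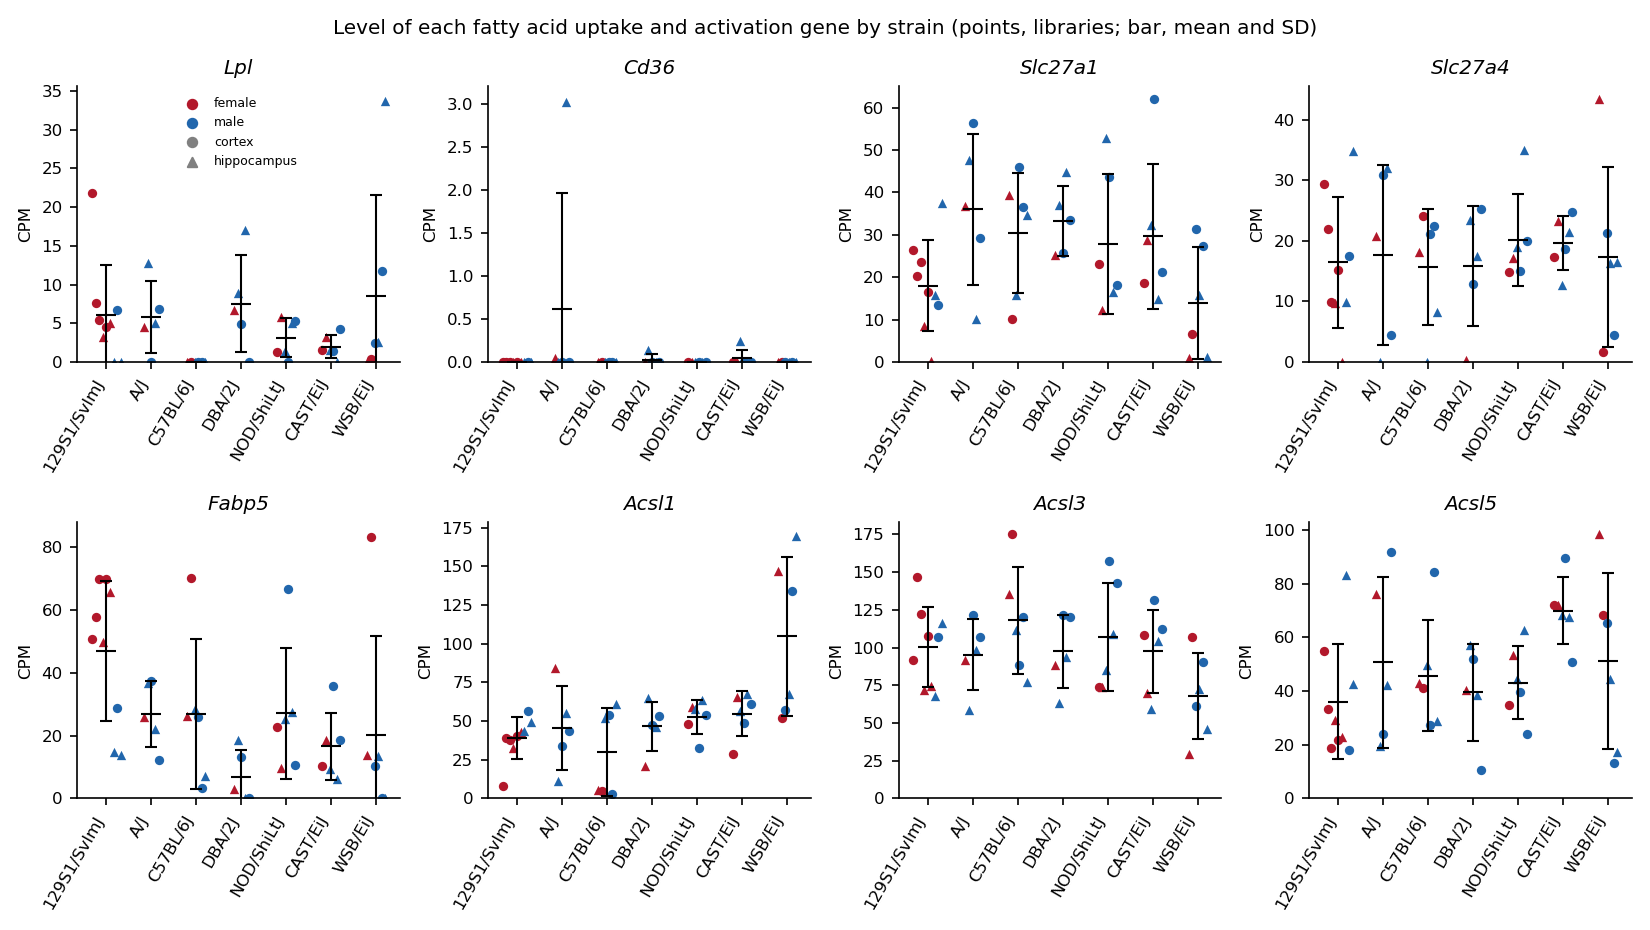
CPM of each gene by strain, 1 point per library (red female, blue male, circles cortex, triangles hippocampus), with the mean and SD as bars; axes differ between genes. Lpl is at 0 in all 6 C57BL/6J libraries, Cd36 rises above 1 CPM in a single library, and Acsl1 has its highest strain mean, 105 CPM, in WSB/EiJ.

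Cd36 (ENSMUSG00000002944, mm10 chr5:17781690-17888801, minus strand) encodes the scavenger receptor and fatty acid translocase of peripheral capillaries. All 43 libraries together held 35 Cd36 counts, and 39 libraries held none. The male A/J hippocampus library titled high had 32 of them, which is 3.03 CPM, and 3 other hippocampus libraries had 1 count each. All 21 cortex libraries had 0, which allows at most 0.0108 CPM over the group. That A/J library ranked 3rd of 43 in the endothelial list, at 9.68, and 22nd in the microglial list, at 0.999; what else set it apart was not tested. Group folds of Cd36 rest on 1 library and are not given. The quasi-likelihood test as used here called Cd36 in no comparison, whereas edgeR's earlier deviances did for sex, region and strain. For A/J against the other strains, its adjusted p was as low as 6.47e-04 among the alternative settings of the quasi-likelihood test.

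The transporters Slc27a1 and Slc27a4 encode FATP1 and FATP4, membrane proteins that also have acyl-CoA synthetase activity. Slc27a1 (ENSMUSG00000031808, mm10 chr8:71568882-71587302, plus strand) ranged from 0.150 to 62.0 CPM with a median of 25.3. By strain it averaged 36.0 ± 17.8 CPM in A/J, 33.3 ± 8.20 in DBA/2J, 30.4 ± 14.2 in C57BL/6J, 29.6 ± 17.1 in CAST/EiJ, 27.8 ± 16.5 in NOD/ShiLtJ, 18.0 ± 10.8 in 129S1/SvImJ and 13.9 ± 13.2 in WSB/EiJ (SD), and no step in this order exceeded the larger SD. Short stretches of its exons, 130 to 167 bases at 95% identity or more, recur in 7 other genes, so that a few of its reads may be uncertain. Slc27a4 (ENSMUSG00000059316, mm10 chr2:29802634-29817522, plus strand) had strain means from 15.7 CPM in C57BL/6J to 20.2 in NOD/ShiLtJ (adjusted p among strains 0.9996). Single libraries fell far below the rest in both. The female 129S1/SvImJ hippocampus library 3 titled high, with 38277327 counts, held 6 counts of Slc27a1 where the median level would give 1012 and 1 count of Slc27a4 where it would give 697. The female DBA/2J hippocampus library, the deepest, held 23 counts of Slc27a4 (exact Poisson 95% interval 14.6 to 34.5) where the median level would give 973. These shortfalls exceed counting error, which those intervals cover alone.

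Fabp5 (ENSMUSG00000027533, mm10 chr3:10012548-10016607, plus strand) encodes the fatty acid binding protein known for the brain endothelium. In 129S1/SvImJ the 6 female libraries had 49.8 to 69.9 CPM and the 3 male libraries 13.9, 14.9 and 28.8, with no overlap. In C57BL/6J the female libraries had 26.3 and 70.2 CPM and the male ones 3.29, 7.01, 26.03 and 28.5, so that they overlapped. DBA/2J was lowest, with 0, 0, 3.13, 13.0 and 18.7 CPM, and its female library was the 3.13. In WSB/EiJ the 6 values were 0, 0, 10.5, 13.6, 13.9 and 83.002 CPM, the highest being the female cortex library and the zeros both male libraries titled high. Strain means ran from 6.97 ± 8.45 (DBA/2J) to 46.8 ± 22.3 CPM (129S1/SvImJ, SD), and the strains were not called (adjusted p = 0.406). Reads may be shared with a pair of near-identical copies, Gm6166 (98.3% identity over 409 bases, 3302 counts in all) and Gm14328 (97.3% over 408 bases), against 20857 counts of Fabp5.

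Acsl1, Acsl3 and Acsl5 encode long-chain acyl-CoA synthetases; ACSL1 and ACSL5 are known from mitochondria and endoplasmic reticulum, and ACSL3 from endoplasmic reticulum and lipid droplets. Acsl3 (ENSMUSG00000032883, mm10 chr1:78657825-78707743, plus strand) had the smallest CV of the 8, 31.1%, with 29.7 to 175 CPM over 43 libraries. Acsl1 (ENSMUSG00000018796, mm10 chr8:46471037-46536051, plus strand) ranged from 2.63 to 169.9 CPM, and Acsl5 (ENSMUSG00000024981, mm10 chr19:55251938-55297720, plus strand) from 10.4 to 98.4. Of the summed CPM per kb of the 3, Acsl3 held 51.0% ± 14.3, Acsl1 26.6% ± 13.6 and Acsl5 22.4% ± 9.34 (SD, n = 43). Acsl3 had the largest share in 37 libraries, Acsl1 in 4 and Acsl5 in 2. These shares leave out the other synthetases, of which Acsl6 averaged 29.1 CPM per kb, above Acsl3 at 24.8. In WSB/EiJ the mean share of Acsl1 was 46.5% ± 18.5 and that of Acsl3 31.7% (n = 6). Acsl3 shares 244 exon bases on its own strand with Utp14b, which had 44904 counts, and Acsl5 overlaps Zdhhc6 by 404 bases on the opposite strand, so part of their counts is uncertain.

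**Figure D3:**
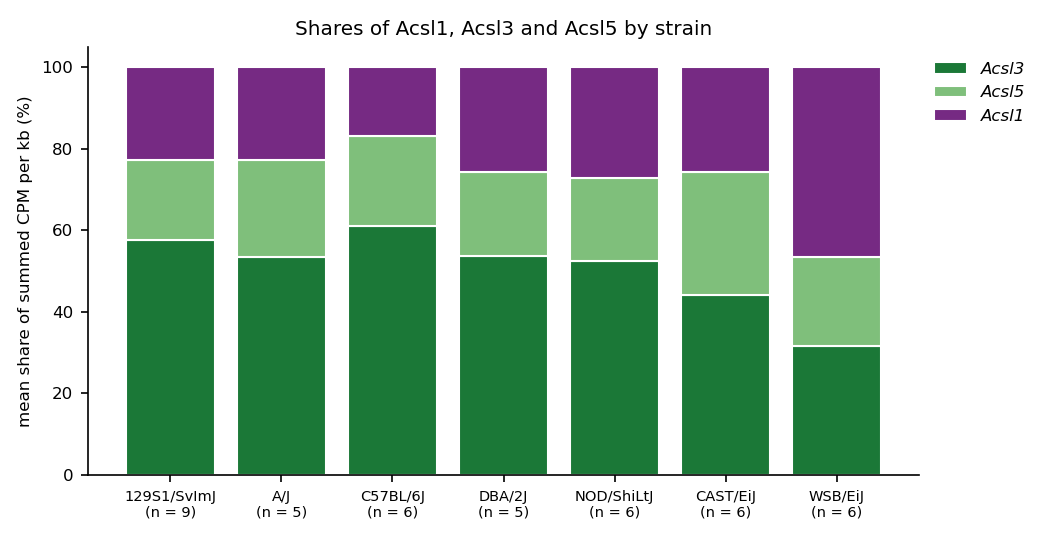
Mean share of each synthetase in the summed CPM per kb of Acsl1, Acsl3 and Acsl5 in %, stacked by strain with the number of libraries under each bar. Acsl3 takes the largest mean share in all strains but WSB/EiJ, where Acsl1 reaches 46.5%.

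WSB/EiJ stood out in Acsl1. Its libraries had 52.3, 57.3, 67.6, 134, 147 and 169.9 CPM, the 3 highest being the female hippocampus library and the male cortex and hippocampus libraries titled high. Those 3 exceeded each of the 37 libraries of the other strains, where the highest was 84.0 CPM, while the lower 3 lay within their range. The male libraries titled high had the fewest counts of all libraries, 2327180 in cortex and 1626534 in hippocampus. The hippocampus one also had the lowest endothelial and the highest pericyte list level of all, 8.47 and 8.26. C57BL/6J had the lowest mean, 30.1 ± 28.4 CPM (SD, n = 6), and split into 2.63, 4.95 and 5.47 against 51.9, 54.2 and 61.3 CPM. CAST/EiJ averaged 54.6 ± 14.5 and NOD/ShiLtJ 52.5 ± 11.1 (n = 6 each), DBA/2J 46.5 ± 16.01 and A/J 45.6 ± 26.9 (n = 5 each), and 129S1/SvImJ 39.0 ± 13.5 (n = 9). Against the mean of the other strains, Acsl1 was higher in WSB/EiJ by 1.25 on the log2 scale (SE 0.32, adjusted p = 0.0180, quasi-likelihood test with Benjamini-Hochberg adjustment). It was the only one of the 8 called there, against 2.41% of all genes. Acsl1, Acsl3, Slc27a1 and Lpl had an unadjusted p under 0.05, Lpl in a fit that C57BL/6J enters at 0 counts. The share of all genes at that unadjusted p is not given, so this number of genes is not read as a result. Without the male hippocampus library titled high the difference was 1.06 (SE 0.35, adjusted p = 0.0962), and in male libraries alone 1.15 (adjusted p = 0.0672). WSB/EiJ also had the lowest mean of the endothelial list, 8.84 ± 0.217 against 9.16 to 9.40 in the other strains, and the highest of the 10 pericyte genes, 7.59 (6.94 to 8.26) against 6.50 to 7.45. None of the 10 pericyte genes was at 0 throughout; Higd1b was at or under 3 counts in 2 libraries, and Kcnj8 and Ndufa4l2 in 1 each. Over the 43 libraries the correlation of Acsl1 with the pericyte list was r = 0.42, both from the same libraries; the part of these cells in the Acsl1 level was not tested.

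In the contrasts of the remaining strains with the other 6, none of the 8 genes was called by the quasi-likelihood test. The share called among all genes was 1.46% in 129S1/SvImJ, 0.254% in A/J, 1.35% in CAST/EiJ, 0.192% in DBA/2J and 0.185% in NOD/ShiLtJ. An unadjusted p under 0.05 was found for 2, 2, 1, 2 and 0 of the 8 in that order. These counts include Lpl in 129S1/SvImJ, A/J and DBA/2J, where C57BL/6J at 0 counts enters the fit. In A/J they also include Cd36, which rests nearly all on 1 library. The share of all genes at that unadjusted p is not given, so the counts are not read as a result. Fabp5 was the nearest to a call, 1.31 higher on the log2 scale in 129S1/SvImJ (SE 0.44, adjusted p = 0.0974) and lower by 1.89 in DBA/2J (a log2 change of -1.89, SE 0.72, adjusted p = 0.456). Over 11 alternative settings of that test, the 129S1/SvImJ change ran from 0.37 to 1.55 (adjusted p from 1.15e-06 to 0.99999). The DBA/2J change ran from -2.05 to -1.13 (adjusted p from 0.0145 to 0.857). The main fit had no term for sex, and most 129S1/SvImJ libraries were female. Acsl5 was 0.67 higher in CAST/EiJ (SE 0.31, adjusted p = 0.426), where the 6 libraries had 50.8 to 89.5 CPM. The fitted Lpl values of these contrasts take in C57BL/6J at 0 counts and are not given. DESeq2 was not run on them; in its test among all strains it called Lpl alone of the 8 (adjusted p = 0.0023).

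Sex was compared over all strains and regions. None of the 8 genes was called (quasi-likelihood test), against 2.85% of all genes, and none by DESeq2; Fabp5 and Slc27a1 had an unadjusted p under 0.05. Of the 8 log2 changes, 3 were above 0 and 5 below, with a median of -0.11 against -0.12 over all genes tested. Fabp5 had 40.5 ± 26.7 CPM in female (SD, n = 16, 3.13 to 83.002) and 18.0 ± 15.1 in male libraries (n = 27, 0 to 66.4), which overlapped. The fitted difference was 1.16 on the log2 scale (SE 0.40, adjusted p = 0.109). Among female and male libraries matched for strain, region and tag, Fabp5 was higher in the female library in 10 of 12, with a median log2 difference of 1.605. With the counts of both copies added, the means were 44.4 and 23.4 CPM. Slc27a1 was lower in female libraries, 18.6 ± 11.7 against 30.4 ± 15.4 CPM, a fitted log2 difference of -0.71 (SE 0.34, adjusted p = 0.340). Acsl1 had 44.8 ± 34.9 and 57.2 ± 31.6 CPM (log2 difference -0.35, SE 0.28, adjusted p = 0.497) and was lower in the female library in 10 of 12 matched cases. Lpl (-0.12, SE 0.79), Slc27a4 (-0.11, SE 0.42), Acsl5 (0.06, SE 0.24) and Acsl3 (0.00, SE 0.17) differed by less than their SE.

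The Fabp5 difference between the sexes depended on what else was in the fit. It was 1.79 (SE 0.46, adjusted p = 0.0131) with the title tag as a covariate and 0.66 (SE 0.51, adjusted p = 0.643) without 129S1/SvImJ. With counts drawn down to the smallest library it was 0.69 (SE 0.39, adjusted p = 0.656, quasi-likelihood test). Female libraries averaged 2.55e+07 counts and male libraries 5.13e+06, so depth went with sex as well. Once the fit included the rRNA-like share, the Fabp5 difference was -0.03 (SE 0.87), a fit that left out 3304 genes. That share averaged 5.19% in female and 18.7% in male libraries. Within a sex, its correlation with the level of Fabp5 was r = -0.46 over 16 female and 0.07 over 27 male libraries. Because the sexes did not overlap in it, sex and this share cannot be told apart.

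**Figure D4:**
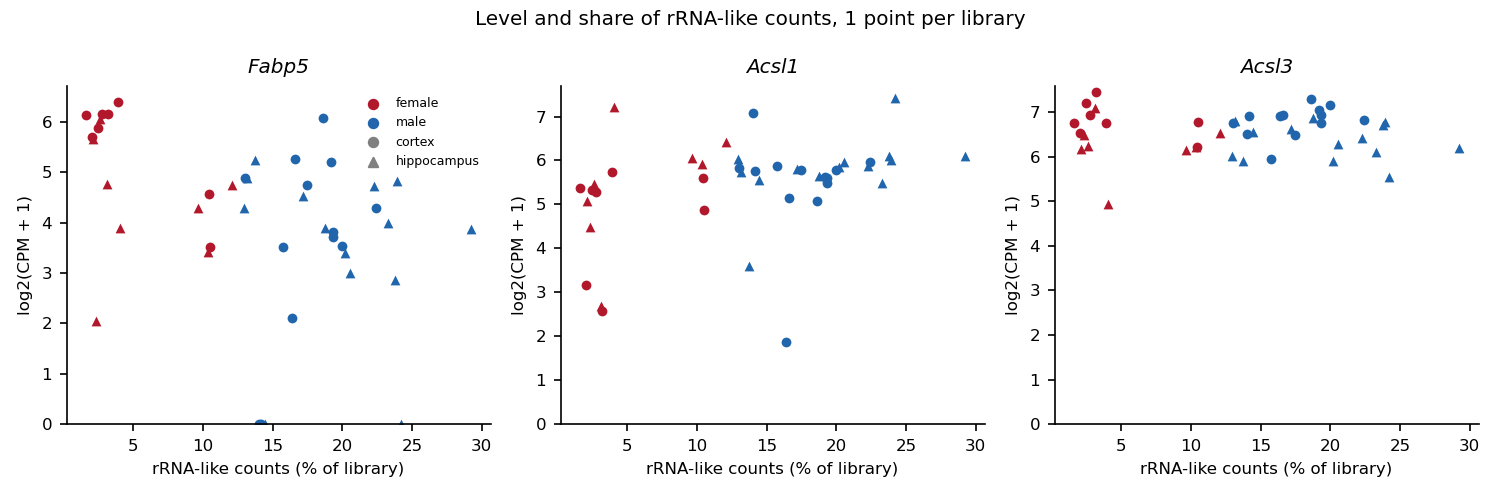
Level of Fabp5, Acsl1 and Acsl3 as log2(CPM + 1) against the share of rRNA-like counts in % of each library, 1 point per library (red female, blue male, circles cortex, triangles hippocampus). Female libraries lie between 1.59% and 12.1% and male libraries between 13.0% and 29.3%, so no value of the share holds both sexes.

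The 2 wild-derived strains were compared with the 5 long-inbred strains, with the library and not the strain as the unit. None of the 8 genes was called by the quasi-likelihood test, against 0.749% of all genes, and none by DESeq2; Acsl1 and Acsl5 had an unadjusted p under 0.05. The median log2 change of the 8 was -0.11, with 4 above and 4 below 0, and that of all genes tested -0.38. Acsl1 averaged 79.6 ± 44.5 CPM in wild-derived (SD, n = 12, 28.4 to 169.9) and 42.2 ± 19.8 in long-inbred libraries (n = 31, 2.63 to 84.0), a log2 difference of 0.91 (SE 0.27, adjusted p = 0.109). With counts summed per strain, so that the strain was the unit, the same test gave 0.88 (SE 0.41, adjusted p = 0.833). The wild-derived strains contributed unequally: against the long-inbred libraries, WSB/EiJ alone gave 1.31 (adjusted p = 0.0407) and CAST/EiJ alone 0.35 (adjusted p = 0.875). Acsl5 had 60.6 ± 25.6 and 42.3 ± 20.8 CPM (0.52, SE 0.24, adjusted p = 0.652). Fabp5 (-0.69, SE 0.48), Slc27a1 (-0.34, SE 0.37), Acsl3 (-0.33, SE 0.18), Lpl (0.18, SE 0.84) and Slc27a4 (0.12, SE 0.45) had adjusted p of 0.754 or more.

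Cortex and hippocampus were compared over all strains, sexes and title tags. None of the 8 was called between the regions by the quasi-likelihood test, against 0.0755% of all genes; Acsl3 alone had an unadjusted p under 0.05, and DESeq2 called it (adjusted p = 0.0497). Acsl3 averaged 115 ± 26.8 CPM in cortex (SD, n = 21, 60.9 to 175) and 81.7 ± 24.7 in hippocampus (n = 22, 29.7 to 136), and the ranges overlapped. The fitted log2 difference was -0.49 (SE 0.15, adjusted p = 0.389). In libraries matched for strain, sex and tag, Acsl3 was lower in hippocampus in 15 of 18, with a median log2 difference of -0.51. Fabp5 had 33.2 ± 26.9 CPM in cortex and 19.9 ± 15.9 in hippocampus (-0.74, SE 0.41), but 9 of 18 matched cases were lower and 7 higher. Acsl1 had 44.7 ± 26.6 and 60.2 ± 37.1 CPM (0.43, SE 0.27) and was higher in hippocampus in 13 of 18. Lpl (0.35, SE 0.76), Slc27a1 (-0.22, SE 0.33), Acsl5 (0.17, SE 0.23) and Slc27a4 (-0.04, SE 0.41) differed by less than their SE. The median of the 8 was 0.06 and that of all genes 0.03. No gene of the 8 was called for a difference of the sex effect or of the origin effect between regions, where 0.00343% and 0% of all genes were called, and none had an unadjusted p under 0.05; DESeq2 was not run on these.

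The title tag was compared within male mice, 14 libraries titled high and 13 titled low. None of the 8 genes was called by the quasi-likelihood test, against 1.06% of the 27529 genes tested, and none by DESeq2; Fabp5 had an unadjusted p under 0.05. Of the log2 changes, 5 were above 0 and 3 below, with a median of 0.29 against 0.04 over all genes. Fabp5 was at 10.7 ± 10.2 CPM in libraries titled high (SD, 0 to 28.8) and 25.9 ± 15.8 in those titled low (9.47 to 66.4). The log2 difference was -1.24 (SE 0.52, adjusted p = 0.441), and the library titled high was the lower one in 12 of 13 matched cases, with a median of -1.88. With strain and region as covariates it was -1.999 (adjusted p = 0.0345). Libraries titled low had higher means of the astrocyte list, 7.19 (6.52 to 8.19) against 6.39 (5.13 to 7.21), and of the neuron list, 4.85 against 3.70, and a lower one of the endothelial list, 9.03 against 9.38. Of the 10 astrocyte genes, Gfap and S100b were at or under 3 counts in 1 library each and none was at 0 throughout. Fabp5 correlated with the astrocyte list at r = 0.38 over the 43 libraries; the part of other cell types in its level was not tested. Slc27a1 was at 24.2 ± 12.5 in libraries titled high and 37.1 ± 15.9 CPM in those titled low (-0.60, SE 0.32), and Lpl at 6.83 ± 9.20 and 2.77 ± 3.95 (1.27, SE 0.97). Acsl1 (0.45, SE 0.28), Slc27a4 (0.41, SE 0.46), Acsl5 (-0.26, SE 0.27) and Acsl3 (0.18, SE 0.18) had adjusted p of 0.651 or more, as had Slc27a1 and Lpl.

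**Figure D5:**
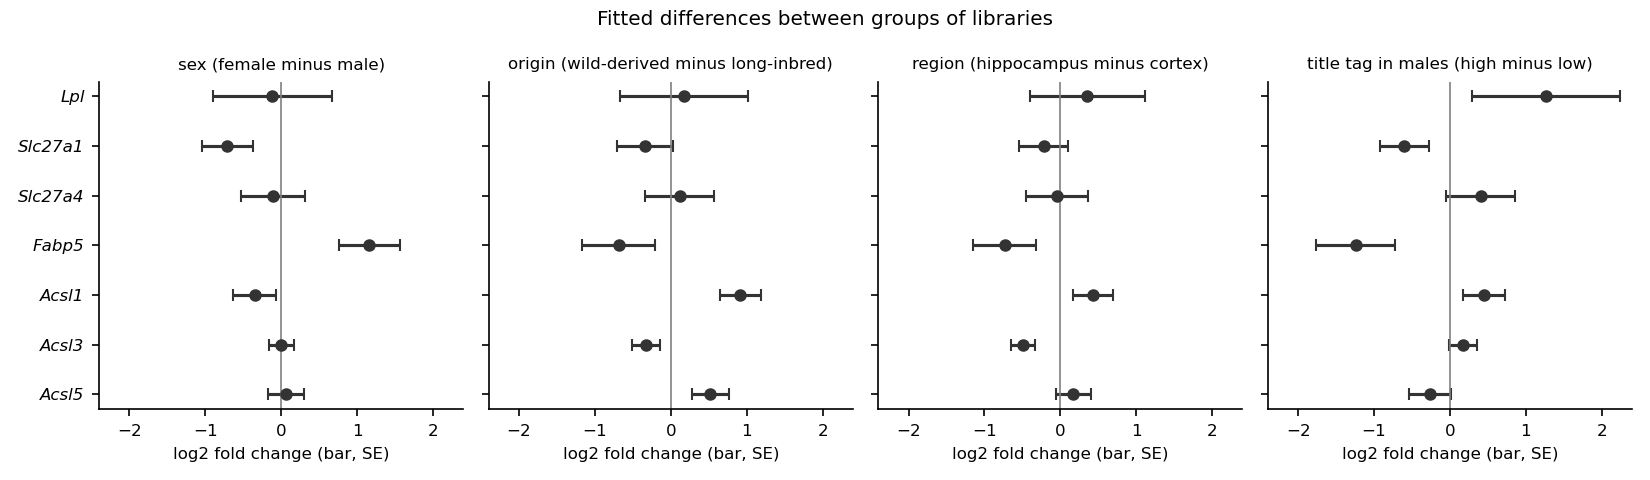
Fitted log2 fold changes with SE (bars) of 7 genes for sex, origin, region and the title tag in male libraries; Cd36 is not drawn, since 1 library holds nearly all its counts. Fabp5 has the largest positive change between the sexes (1.16) and a negative one for the tag (-1.24), Acsl1 leads for origin (0.91), and none was called by the quasi-likelihood test.

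Other genes of fatty acid handling came from 7 lists of 54 genes, 48 of which were tested, or 47 for the tag. Between the sexes 1 of 48 was called, against 2.85% of all genes: Acsbg1, an acyl-CoA synthetase, was lower in female libraries (log2 change -1.17, SE 0.30, adjusted p = 0.0134). That call was lost with the title tag or the rRNA-like share as a covariate (adjusted p = 0.254 and 0.158), in libraries titled high, in hippocampus and without A/J. For origin 1 of 48 was called, against 0.749%: Mgll, monoacylglycerol lipase, was lower in wild-derived strains (-1.08, SE 0.23, adjusted p = 0.00386). It was lost without WSB/EiJ (adjusted p = 0.291), with counts summed per strain (0.833) and in either region alone. For the tag 1 of 47 was called, against 1.06%: Cav1 was higher in male libraries titled high (0.67, SE 0.16, adjusted p = 0.0181). It was lost in either region alone and without any 1 of the 6 strains other than WSB/EiJ (adjusted p from 0.0525 to 0.0970). For region none of 48 was called by the quasi-likelihood test or DESeq2, with 7 at an unadjusted p under 0.05. Among strains 5 of 48 were called, against 2.68% of all genes, namely Mgll, Gpihbp1, Tcf15, Ppard and Cav1. Mgll and Tcf15 were called with each A/J or DBA/2J library left out; Gpihbp1 was not without the female or the male DBA/2J hippocampus library titled high, Ppard without any of the 3 DBA/2J hippocampus libraries, and Cav1 without either male A/J library titled high. DESeq2 did not call Gpihbp1, and neither did fits with counts drawn down or with sex, region and tag as covariates. Ppard was not called without a filter or with counts drawn down. Of these 5, only Mgll was called in male libraries alone and in cortex alone, and only Gpihbp1 in hippocampus alone. By strain, Mgll was higher in A/J (1.24, SE 0.22, adjusted p = 5.32e-04) and lower in WSB/EiJ (-1.27, SE 0.26, adjusted p = 0.00133), and Cav1 was higher in CAST/EiJ (0.75, SE 0.21, adjusted p = 0.0383). WSB/EiJ had 6 calls of 48, 3 in each direction, against 2.41% of all genes. Pnpla2, the adipose triglyceride lipase (0.82, SE 0.22), and the nuclear receptor Ppard (0.88, SE 0.20) were higher there. The Ppard call was lost in male libraries alone. Those of Pnpla2 and of Cav1 in CAST/EiJ were lost there too, with DESeq2 size factors and with counts drawn down. Calls of low genes are given as levels. Tcf15, a transcription factor known for endothelial fatty acid uptake in heart, averaged 0.113 CPM in WSB/EiJ, with all 6 libraries at or under 3 counts, against 11.8 over the 43 libraries. Fabp7, an astrocyte fatty acid binding protein, averaged 0.575 against 10.5, and Apoc2 was seen in only 1 of the 6 WSB/EiJ libraries, at 27.3 CPM. The calls of Fabp7 and Apoc2 were lost with the default dispersion and in male libraries alone. That of Apoc2 was lost with counts drawn down and with covariates too. Gpihbp1, which anchors LPL at the capillary lumen, averaged 15.5 ± 21.1 CPM in DBA/2J (SD, n = 5, adjusted p = 0.00134), with 2 of the 5 libraries at 0, and 34 of all 43 libraries were at 0. This DBA/2J call was lost with counts drawn down, with sex, region and tag as covariates, and in male libraries alone. In 129S1/SvImJ, C57BL/6J and NOD/ShiLtJ none of 48 was called by the quasi-likelihood test, with 6, 5 and 3 at an unadjusted p under 0.05. Counts of the 48 at that unadjusted p, here and for region, lack the share of all genes and are not read as a result.

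The genes most like each of the 8 over 43 libraries were sought among those with a mean of at least 5 CPM, by Pearson correlation of log2(CPM + 1), as a description that shares depth and library. For Slc27a1 these were Tmem229a (r = 0.74), Metrn (0.74) and Acvr2a (0.72), and for Acsl1 Qsox2 (0.73), Slc41a1 (0.71) and F2r (0.67). Acsl5 was most like Ehd1 (0.66), Abcd3 (0.65) and the caveolar gene Cavin1 (0.64), and Fabp5 most like Odr4 (0.66), Thap12 (0.65) and Serf2 (0.63). Slc27a4 went with D230025D16Rik (0.64), Zbtb45 (0.61) and Kbtbd4 (0.60), Acsl3 with Mroh1 (0.62), Ptcd1 (0.61) and Arl6ip5 (0.60), and Lpl with Tmem18 (0.59), Rab6a (0.55) and Slc36a4 (0.55). For Cd36, where 1 library sets the value, the highest were Rfx2 and Slc25a20 (0.32 each) and Cbfa2t3 (0.31). Among the 8 themselves no pair went above 0.40, that of Slc27a1 with Acsl3, and the lowest was Acsl1 with Acsl3, at -0.43.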

How the data were processed

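Raw counts per gene, as deposited, were analysed for all 43 libraries. For this RNA-seq the authors made stranded libraries from rRNA-depleted total RNA (SMARTer Stranded Pico kit), sequenced single ends of 125 bp, aligned the reads to mm10 and counted per gene; the submitters' processing notes name HISAT2 2.1.0, SAMtools 1.9 and featureCounts of Subread 1.4.4. The strand setting of the counting is not given in the sources used here. No deposited count was normalized.

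TMM scaling was done with edgeR 4.0.16 in R 4.3.3, followed by its quasi-likelihood test with a trended dispersion, bias-adjusted deviances and no covariates, with Benjamini-Hochberg adjustment; DESeq2 1.42.0 was an alternative. The programs were tested on simulated counts. Where covariates were fitted, a gene was left out if any fitted count was over 5 times its highest observed count. The label of sex matched Xist and Ddx3y in 43 of 43 libraries, and 0 pairs of columns were identical. Positions came from GENCODE release M21 (mm10), promoters from RefSeq, and near-identical copies from BLAST 2.17.0 (e-value at most 1e-20, at least 95% identity). Correlations used a pseudocount of 1 in Python 3.11.15. Levels are CPM with SD over libraries, and the floor was 3 counts.

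Named were the 8 genes in every comparison, genes of the 7 lists with an adjusted p under 0.05 (up to 6 per comparison), and the 3 genes most like each of the 8. One gene of the lists is not reported here. The genes, lists and tests were chosen with earlier results of these data known. Alternatives were another scaling, other filters, dispersions and deviances, DESeq2, counts drawn down, covariates, subsets, and libraries or strains left out.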

Additional observations from a re-analysis of the deposited data

Results flagged for a closer look

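Sets of libraries, each of 1 gene in 1 strain, were taken if any library was above 3 counts. Of 49 such sets, 8 had a single library apart from the rest by Dixon's test. The chance rate of about 1 in 20 sets holds for normal values and not for zeros and low counts, so the 8 are not set against it. Cd36 stood at 3.03 CPM in the male A/J hippocampus library titled high, where the strain's median was 0. No other A/J library was above 3 counts of Cd36, so the set was taken only through the library flagged in it. The female 129S1/SvImJ hippocampus library 3 titled high was low in both transporters, with Slc27a1 at 0.150 CPM (strain median 16.4) and Slc27a4 at 0.025 (15.2). Slc27a4 was also far from the rest in the male C57BL/6J hippocampus library titled low, at 0 CPM (19.7), in the female DBA/2J hippocampus library, at 0.412 (17.4), and in the male NOD/ShiLtJ hippocampus library titled high, at 35.0 (18.1). Acsl1 was at 7.98 CPM in the female 129S1/SvImJ cortex library titled low (40.4), the only female library with that tag. Acsl5 was at 10.4 CPM in the male DBA/2J cortex library titled high (40.3).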

How the results depend on the processing

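Depth limits Lpl and Cd36 most: 3 counts are 0.172 CPM over the 6 WSB/EiJ libraries and 0.0113 over the 9 of 129S1/SvImJ. The number of the 8 genes called was recomputed under each alternative, and the cause of a change was not tested unless stated. Between the sexes (0 called) it was 2 with edgeR's earlier deviances (Cd36 and Fabp5), 1 with its default dispersion and 1 with the title tag as a covariate (Fabp5 in both), and 0 in the other 19 of 22. For origin (0) it was 1, Acsl1, with the earlier deviances, the default dispersion, WSB/EiJ as the only wild-derived strain, or CAST/EiJ left out, and 0 in 19 of 23. For region (0) it was 2 with the earlier deviances (Acsl3 and Cd36) and 1 with DESeq2 (Acsl3), and 0 in 17 of 19. For the tag (0) it was 1, Fabp5, with the default dispersion and with strain and region as covariates, and 0 in 17 of 19.

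Among strains (1, Lpl) it was 4 with the earlier deviances (Acsl1, Cd36, Fabp5 and Lpl), 2 with the default dispersion (Acsl1 and Fabp5, with Lpl not called at an adjusted p of 0.0846), and 0 without a filter, with counts drawn down, with sex, region and tag as covariates, in male libraries, in cortex and in hippocampus. Leaving out each A/J and DBA/2J library in turn gave 0 to 1. Among alternatives chosen after seeing the data, it was 0 without the female 129S1/SvImJ cortex library titled low, without the male WSB/EiJ hippocampus library titled high, and without C57BL/6J. For single strains (2 calls) it was 5 with the earlier deviances, 1 with counts drawn down and 0 in the 27 male libraries. In a fit added after seeing the data, it was 1 without the male WSB/EiJ hippocampus library titled high. Lpl in C57BL/6J had an adjusted p of 0.111 with the default dispersion. Of 1253 refitted log2 changes of the 8 genes, 83 changed sign, none of them a called change. No paired analysis was possible because the titles do not name the mouse and print fewer than 2 replicate numbers shared between groups; with strain, sex and tag combined in 1 factor, which matches libraries and not mice, region called 0 of 8.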

Other observations

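Some genes of peripheral fatty acid handling were at or near 0 throughout. Angptl8, Fabp1, Fabp6 and Acsbg2 had 0 counts in all 43 libraries. Fabp4, the binding protein of adipose and peripheral capillaries, had 15 counts, with 41 libraries at 0, and Meox2, which acts with Tcf15 in heart endothelium, had 13 counts in 1 library. The other synthetases and carriers were measured in more libraries: Acsl6 averaged 75.6 ± 52.7 CPM (SD, n = 43), Acsl4 21.9 ± 11.4 and Slc27a6 7.44 ± 8.01, with 9 libraries at 0 for the last.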
